A study of Homo sapiens with 12 samples.

Results

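The nuclear-encoded subunits of the respiratory chain and ATP synthase were described in a human breast cancer cell line, HS578T, across a labelled loss of the short arm of chromosome 17 (17p) and doxorubicin. The members are the protein-coding genes whose symbols start with NDUFA, NDUFB, NDUFC, NDUFS or NDUFV and a number, are SDHA, SDHB, SDHC or SDHD, or start with UQCR, COX4, COX5, COX6, COX7, COX8, ATP5F, ATP5M or ATP5P. This rule took 88 of the 60660 genes in the count table, namely 36 of complex I, 4 of complex II, 9 of complex III, 19 of complex IV, 18 of complex V and 2 read-through genes. No expression value entered the rule, and none of the 88 genes lies on 17p.

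Total RNA was sequenced from 12 libraries in 4 groups of 3. Cells titled 17PKO and described as carrying a heterozygous 17p loss, called deleted here after that label, received doxorubicin at 1 µM for 48 h. Cells titled CAS9, called intact here, received doxorubicin at 170 nM for 48 h. Deleted cells and intact cells in DMSO, the vehicle, were the matching controls. HS578T is an established triple-negative line with a mesenchymal character, and doxorubicin is an anthracycline that poisons DNA topoisomerase. The dose of the deleted cells was 5.88 times that of the intact cells, so genotype and dose cannot be told apart in any comparison of treated libraries between genotypes. The labels state neither how many clones each genotype stands for nor that the 3 libraries of a group were separate cultures, so a p-value here reflects the variation among those 3 libraries, and this may be technical in part or in whole.

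The respiratory chain of the inner mitochondrial membrane passes electrons from NADH (complex I) and succinate (complex II) through complex III to complex IV, which reduces oxygen. Complexes I, III and IV pump protons, and complex V, the ATP synthase, makes ATP as protons flow back. Complex II is built from nuclear genes only, whereas the other complexes join nuclear subunits to a few that mitochondrial DNA encodes. The nuclear genes are scattered over the chromosomes, and NRF1, GABPA and YY1 are transcription factors known to bind many of their promoters.

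Library totals ran from 66150539 to 99142099 counts, of which 3 counts make 0.0303 to 0.0454 CPM before scaling, a limit that covers counting error only. All other CPM values are scaled to library sizes adjusted by the TMM method. Of 12 mesenchymal markers 11 reached 1 CPM in every library. They summed to 5610 to 5710 CPM in treated deleted, 8630 to 8810 CPM in treated intact, 7250 to 7700 CPM in deleted DMSO and 9970 to 10400 CPM in intact DMSO cells. Of 12 epithelial markers 7 were under 1 CPM everywhere and 4 reached it in every library. Their sums were 555 to 565 CPM in treated deleted, 434 to 629 CPM in treated intact, 474 to 635 CPM in deleted DMSO and 547 to 568 CPM in intact DMSO cells, and of 10 tested, 4 were lower in deleted than in intact DMSO cells, while doxorubicin in deleted cells gave 3 higher and 1 lower. Blood markers, of which 11 of 12 were under 1 CPM, summed to 4.24 to 5.65 CPM in treated deleted cells and at most 2.40 CPM in the other groups. Endothelial markers, of which 7 of 8 were under 1 CPM, summed to 1.30 to 2.01 CPM in treated deleted cells and at most 1.05 CPM in the others. No marker was at 0 counts in all libraries, and the part of these differences in the members' values was not tested. A check of the line's identity by chromosome-specific transcripts, with no karyotype made, did not match its recorded karyotype in 12 of 12 libraries. The name HS578T is therefore used here after the labels. The median log2 fold change of 399 tested genes of 17p in deleted against intact cells in DMSO was -0.12, beside 0.04 for all other genes. Between treated deleted and treated intact cells it was -0.04, beside 0.02, so 17p genes lay slightly below the other genes in each comparison and the label rests on the submitters' description. Replicate 2 of the treated intact cells stood apart for the members. They made up 0.79% of its counts, against 0.528% to 0.671% in the other 11 libraries, and 70 of 82 members were higher there than in both partner libraries. By the same count 62 of 82 were lower in intact DMSO replicate 2 and 53 higher in treated deleted replicate 1. This count was not made for all genes. Mitochondrial transcripts made up 5.54% of counts in treated intact replicate 1 and 6.90% in deleted DMSO replicate 2, against 2.61% to 3.57% in the others. Counts of members are given with and without treated intact replicate 2 and these 2 libraries, as are medians whose direction they decide. The comparisons below share control libraries in part.

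Promoters were read for 71 members that matched the RefSeq table (GRCh38.p14), 250 bases before to 50 after the annotated start. The NRF1 letters GCGCATGC, on either strand, were in 19.7% of these member windows and in 4.83% of 15772 other protein-coding windows of the same length. The ETS letters CCGGAAG, the core that GABPA reads, were in 29.6% of member windows and 16.5% of other windows, and the YY1 letters AAGATGGC in 16.9% of member windows and 4.61% of other windows. At least 1 of these motifs was in 52.1% of member windows and 23.3% of other windows, and no member window had ETS and YY1 matches that overlap. The CCAAT box letters CCAAT were in 35.2% of member windows and 42.2% of other windows, and TATAAA in 9.86% of member windows and 12.4% of other windows. ACGTG, used for the hypoxia motif and added after the values had been seen, was in 25.4% of member windows and 28.5% of other windows. Other spellings of a motif were not searched. A match is a string of letters and not a bound site.

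The 250 bases before the start are printed, 5′ to 3′ on the gene's strand, for 5 members that carry the largest or the opposed changes described below. SDHB (chr1:17054033-17054282, minus strand) and COX5B (chr2:97645812-97646061, plus strand) hold NRF1 and ETS letters and were called in opposite directions between the treated genotypes. ATP5MC1 (chr17:48892537-48892786, plus strand) holds 4 CCAAT boxes, and ATP5PF (chr21:25735055-25735304, minus strand), which shares this stretch with GABPA on the other strand, holds 1 match of each of 5 motifs. NDUFA4L2, named COXFA4L2 in RefSeq (chr12:57240763-57241012, minus strand), holds none of the exact letter strings searched. Capitals mark motif matches on either strand.
SDHB: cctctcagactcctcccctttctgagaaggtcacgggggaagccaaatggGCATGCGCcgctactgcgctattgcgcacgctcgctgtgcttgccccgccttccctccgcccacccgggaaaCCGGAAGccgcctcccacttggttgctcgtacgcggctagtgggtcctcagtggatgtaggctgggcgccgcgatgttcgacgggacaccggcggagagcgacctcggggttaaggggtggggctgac
COX5B: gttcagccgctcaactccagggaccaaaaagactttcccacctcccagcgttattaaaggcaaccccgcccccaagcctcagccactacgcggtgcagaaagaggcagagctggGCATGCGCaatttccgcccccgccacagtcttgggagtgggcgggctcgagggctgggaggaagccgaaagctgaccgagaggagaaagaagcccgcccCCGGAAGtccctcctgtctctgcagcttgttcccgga
ATP5MC1: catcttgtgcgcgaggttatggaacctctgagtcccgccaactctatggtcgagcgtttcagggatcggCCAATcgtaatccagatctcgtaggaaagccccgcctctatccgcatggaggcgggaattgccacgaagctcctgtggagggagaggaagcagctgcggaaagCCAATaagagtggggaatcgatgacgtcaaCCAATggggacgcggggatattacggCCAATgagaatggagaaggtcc
ATP5PF: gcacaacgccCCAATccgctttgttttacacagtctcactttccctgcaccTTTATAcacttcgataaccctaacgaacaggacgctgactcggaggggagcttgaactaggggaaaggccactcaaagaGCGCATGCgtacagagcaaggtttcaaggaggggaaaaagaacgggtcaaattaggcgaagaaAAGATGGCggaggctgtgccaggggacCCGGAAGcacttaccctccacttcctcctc
NDUFA4L2: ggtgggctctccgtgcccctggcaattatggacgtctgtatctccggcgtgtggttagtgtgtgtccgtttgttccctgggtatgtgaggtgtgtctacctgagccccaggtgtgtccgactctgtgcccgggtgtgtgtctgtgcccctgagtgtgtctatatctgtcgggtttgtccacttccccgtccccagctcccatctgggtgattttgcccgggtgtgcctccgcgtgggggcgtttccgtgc

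Of the 88 members 82 had enough counts to be tested. The 6 others were the tissue isoforms COX4I2, COX6A2, COX7A1, COX7B2 and COX8C and the read-through gene NDUFC2-KCTD14, with 0 to 9 counts over all 12 libraries. Per kilobase of exon, the highest level in intact DMSO cells was that of ATP5F1B, the catalytic beta subunit of ATP synthase, at 262 ± 10.5 CPM per kb (SD, n = 3). NDUFS5, an accessory subunit of complex I, followed at 216 ± 8.78 CPM per kb. The housekeeping forms of complex IV subunits stood far above their tissue forms in the same cells. COX6B1 was at 91.4 ± 5.63 CPM per kb and its testis form COX6B2 at 0.275 ± 0.025 CPM per kb. NDUFA4, a complex IV subunit despite its name, was at 21.2 ± 0.987 CPM per kb, and its paralog NDUFA4L2, known as a hypoxia-induced gene, at 0.0819 ± 0.0416 CPM per kb. Counts of NDUFA13, NDUFA7, NDUFB8 and NDUFV2 were low for such subunits, and overlapping or read-through genes share their exons, so their values are uncertain. The same holds for 20 members with more than 20% of exon bases shared with another gene, and 45 members have annotated pseudogene copies that can take reads.

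**Figure D1:**
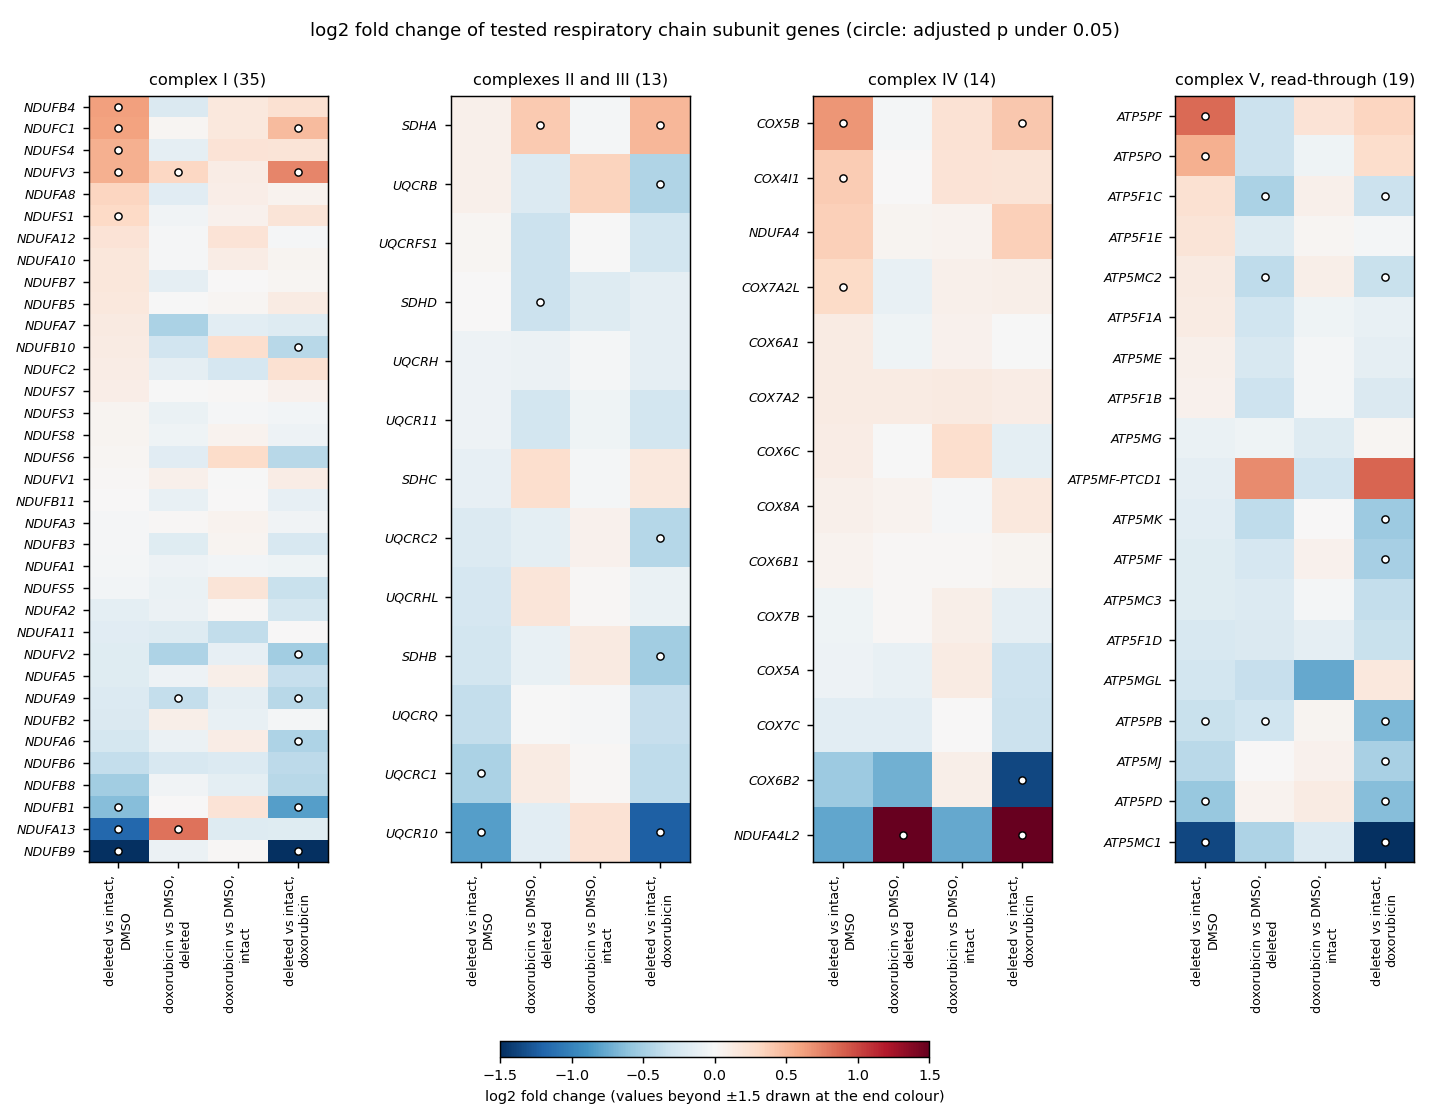
log2 fold change of the tested genes reported here (rows, sorted within each complex by the first column) in 4 comparisons (columns). Red is higher and blue is lower in the group named first, colours end at 1.5 in either direction, and circles mark adjusted p under 0.05. Circles of both directions stand in the first and last columns of complex I, complex V has only lower calls in the last column, and the column of doxorubicin in intact cells has none.

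In DMSO, deleted cells differed from intact cells in both directions, with no common shift of the chain. Of 82 members 10 were higher and 8 lower at adjusted p under 0.05, 22.0% in all, whereas 34.9% of all genes tested passed (18.8% higher and 16.2% lower). The adjusted p is from edgeR's quasi-likelihood test with Benjamini-Hochberg adjustment over all genes. The median log2 fold change of the members was -0.01, beside 0.04 for all genes. In these bulk libraries a different share of cells and a different amount of RNA per cell cannot be told apart. The libraries of deleted and intact cells did not overlap for 35 of 82 members, beside 49.5% of all genes. With the GC trend of each library removed, 9 members were higher and 11 lower, beside 21.1% and 20.5% of all genes. Without the 2 libraries of highest mitochondrial share they were 9 and 10, beside 18.2% and 18.6%. Without treated intact replicate 2, which is in neither group but enters the shared fit, they were 10 and 15, beside 18.4% and 18.2%. The higher calls numbered 4 without intact DMSO replicate 2, with 8 lower, beside 12.8% and 13.6%. They numbered 6 without intact DMSO replicate 1, beside 3088 of 22785 genes. The same number, 6, was higher without treated deleted replicate 1 (3234 of 22677 genes) or 3 (3178 of 22601 genes). With only the 2 groups compared, 14 of 80 tested members were lower, beside 3531 of 19740 genes.

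Complex I gave 5 members higher and 3 lower of 36, beside 18.8% and 16.2% of all genes. NDUFB9, an accessory subunit of the membrane arm (chr8:124539101-124580648), had 70.6, 60.5 and 72.8 CPM in deleted DMSO cells, against 192, 189 and 199 CPM in intact DMSO cells. Every deleted library was far below every intact one. Its log2 fold change was -1.51 (SE 0.14, adjusted p = 2.93e-06), and 21.0% of its exon bases are shared with MTSS1 or TATDN1 on the other strand. NDUFA13 (also GRIM-19) had 1.29, 1.17 and 1.73 CPM in deleted DMSO cells, against 3.23, 3.66 and 2.62 CPM in intact DMSO cells, a log2 fold change of -1.18 (SE 0.20, adjusted p = 0.000575). The groups did not overlap, and 21.0% of its exon bases are shared with AC011448.1 or YJEFN3. NDUFB1, a small accessory subunit, was lower as well (-0.64, adjusted p = 0.018). The higher members were NDUFB4 (0.61), NDUFC1 (0.60), NDUFS4 (0.53), NDUFV3 (0.53) and NDUFS1 (0.30), of which NDUFS1 is the core iron-sulfur subunit of the NADH module and the others are accessory. NDUFV1, the core flavoprotein subunit that takes the electrons of NADH and an abundant member that did not pass, had a log2 fold change of 0.02 (95% interval -0.31 to 0.34).

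No subunit of complex II passed. SDHB, the iron-sulfur subunit (chr1:17018722-17054170), had 80.1, 80.7 and 83.2 CPM in deleted DMSO cells, against 92.1, 96.9 and 104 CPM in intact DMSO cells. The groups did not overlap, yet the log2 fold change of -0.27 (SE 0.11) missed the threshold (adjusted p = 0.0699) and passed it in 11 of 23 alternative settings. Of 9 complex III members 2 were lower, beside 16.2% of all genes. UQCR10, a small subunit next to cytochrome c1 (chr22:29767369-29770413), had 38.3, 40.2 and 46.7 CPM in deleted DMSO cells, against 78.9, 64.8 and 78.7 CPM in intact DMSO cells. No deleted library reached the lowest intact one, and the log2 fold change was -0.83 (SE 0.16, adjusted p = 0.00119). UQCRC1, a core subunit, was at -0.48 (adjusted p = 0.0266).

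Complex IV had 3 members higher and none lower of 14, beside 18.8% and 16.2% of all genes. COX5B (chr2:97646040-97648383), a subunit on the matrix side, had 81.6, 79.8 and 82.8 CPM in deleted DMSO cells, against 52.6, 48.7 and 52.8 CPM in intact DMSO cells. The groups were far apart and tight, with a log2 fold change of 0.66 (SE 0.14, adjusted p = 0.00235). COX4I1, the ubiquitous form of the subunit that binds ATP, had a log2 fold change of 0.38 (adjusted p = 0.021), and COX7A2L, which helps join complexes III and IV into supercomplexes, one of 0.29 (adjusted p = 0.0299). COX5A, the most abundant complex IV member short of the threshold, was at -0.08 (95% interval -0.43 to 0.27).

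Complex V had 2 members higher and 3 lower of 18, beside 18.8% and 16.2% of all genes. ATP5MC1, 1 of 3 genes for the same mature c subunit of the proton-driven ring (chr17:48892765-48895871, on the long arm), had 36.9, 26.2 and 39.6 CPM in deleted DMSO cells, against 87.2, 85.7 and 91.3 CPM in intact DMSO cells. The highest deleted library was far below the lowest intact one. Its log2 fold change was -1.36 (SE 0.20, adjusted p = 0.000143), whereas ATP5MC2 and ATP5MC3, which encode the same mature protein, were at 0.14 (adjusted p = 0.435) and -0.18 (adjusted p = 0.409). ATP5PF, coupling factor 6 of the peripheral stalk (chr21:25716503-25735673), had 63.5, 85.7 and 71.0 CPM in deleted DMSO cells, against 42.4, 38.5 and 41.2 CPM in intact DMSO cells. The groups did not overlap, with a log2 fold change of 0.85 (SE 0.13, adjusted p = 0.00025), and 23.1% of its exon bases are shared with GABPA or JAM2 on the other strand. The other stalk genes split, with ATP5PO at 0.53 (adjusted p = 0.044), ATP5PD at -0.57 (adjusted p = 0.00301) and ATP5PB at -0.33 (adjusted p = 0.00649). ATP5PO shares 25.4% of its exon bases with other genes. ATP5F1B was at 0.06 (95% interval -0.30 to 0.41).

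Of the 18 calls in DMSO, those of NDUFB9, NDUFA13, NDUFS4, NDUFV3, UQCR10, COX5B, ATP5MC1, ATP5PB, ATP5PD and ATP5PF held whichever library was left out. NDUFC1 lost its call without intact DMSO replicate 2 (0.53, adjusted p = 0.0534). The other 7 lost theirs in 2 to 9 of 12 such fits, most often NDUFS1 and COX7A2L, with log2 fold changes of 0.24 to 0.36 and 0.18 to 0.35.

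**Figure D2:**
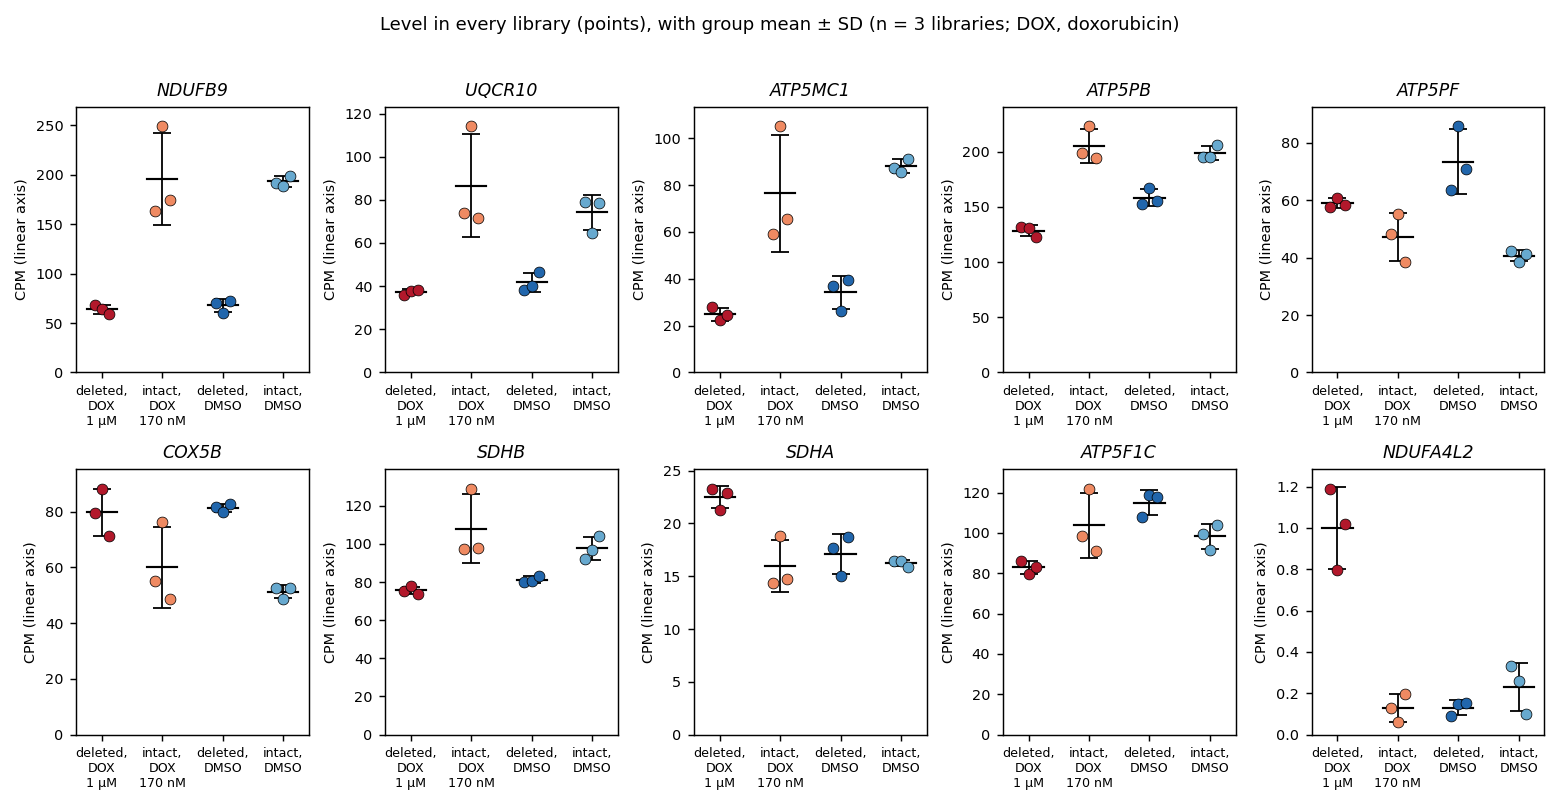
CPM of 10 members in every library (points; linear axes from 0), with the mean and SD of 3 libraries as bars, for treated deleted, treated intact, DMSO deleted and DMSO intact cells from left to right. NDUFB9, UQCR10, ATP5MC1 and ATP5PB are lower in deleted than in intact cells with or without doxorubicin, and NDUFA4L2 is high in treated deleted cells alone among the 4 groups.

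The members lie on 22 chromosomes, and in DMSO their differences went partly with those of their neighbours. On chromosome 21 all 3 members, ATP5PF, ATP5PO and NDUFV3, were higher, with a median log2 fold change of 0.53, and the 227 other genes tested there had a median of 0.60. On chromosome 22 the members had a median of -0.27, against -0.45 for the other genes. Both members of chromosome 17, ATP5MC1 and ATP5PD, lie on the long arm and had a median of -0.97, against -0.20 for the other genes of the chromosome. NDUFB9 at -1.51 stood far below the median of -0.15 of the other genes of chromosome 8. Over 82 members, the log2 fold change and the median of the other genes of the same chromosome had r = 0.45 and rho = 0.35, given as a description since members of 1 chromosome share a value and all share libraries. The part of chromosome-wide differences in the members' values was not tested.

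**Figure D3:**
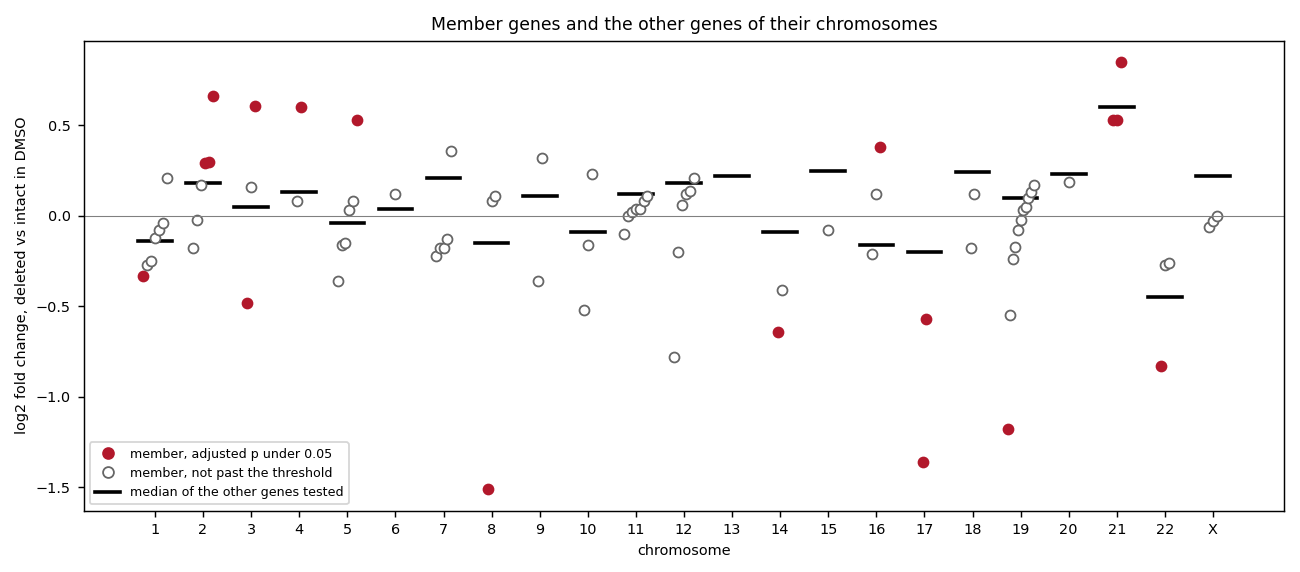
log2 fold change of each tested member in deleted against intact DMSO cells (points; filled, adjusted p under 0.05) by chromosome, with the median of the other genes of that chromosome (bars). The 3 members of chromosome 21 lie near its raised median of 0.60, while ATP5MC1 at -1.36 and NDUFB9 at -1.51 lie far below the medians of chromosomes 17 and 8.

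In deleted cells, 1 µM doxorubicin against DMSO gave 4 members higher and 5 lower of 82, or 11%, whereas 30.7% of all genes passed (17.5% higher and 13.1% lower). The median log2 fold change was -0.10 for the members and -0.02 for all genes, and libraries did not overlap for 22 members, beside 45.3% of all genes. The split was 4 higher and 2 lower with library totals in place of TMM scaling, beside 18.2% and 11.7% of all genes, and 4 and 8 with the GC trend removed, beside 20.4% and 17.4%. NDUFA4L2 (chr12:57234903-57240715) was the member with the largest change. It had 1.19, 0.795 and 1.02 CPM in treated deleted cells, against 0.0888, 0.149 and 0.152 CPM in deleted DMSO cells. Every treated library was several times above every DMSO one, at a level that stayed low beside that of NDUFA4, which had 106, 97.2 and 96.5 CPM in treated deleted cells and 94.5, 82.3 and 114 CPM in deleted DMSO cells. The log2 fold change of NDUFA4L2 was 2.92 (SE 0.48, adjusted p = 0.000388) and that of NDUFA4 0.04 (adjusted p = 0.881). NDUFA4L2 is a known target of the hypoxia-inducible factor. Of 14 other hypoxia response genes 5 were higher, among them BHLHE40 (2.12), NDRG1 (1.61) and VEGFA (0.98), and 1 was lower, P4HA1 (-0.41). In DMSO, 7 of the 14, BHLHE40 among them, were lower in deleted than in intact cells and 0 higher, beside 16.2% and 18.8% of all genes. Against treated intact cells, where NDUFA4L2 was at 2.91 in treated deleted cells, calls on this list went both ways. There 4 of the 14 genes passed upward and 5 downward, and the list's median log2 fold change was -0.16. Whether the hypoxia-inducible factor had a part in the NDUFA4L2 change was not tested.

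Complex II split under doxorubicin. SDHA, the flavoprotein that oxidises succinate, had 23.3, 21.3 and 22.9 CPM in treated deleted cells, against 17.7, 15.0 and 18.7 CPM in deleted DMSO cells, a log2 fold change of 0.39 (SE 0.12, adjusted p = 0.024). SDHD, a membrane anchor, had 39.0, 31.8 and 32.7 CPM in treated deleted cells, against 42.6, 42.5 and 44.0 CPM in deleted DMSO cells, a log2 fold change of -0.32 (SE 0.10, adjusted p = 0.0294). Neither pair of groups overlapped. SDHB was at -0.11 (95% interval -0.33 to 0.12) and SDHC, the other anchor, at 0.25 (-0.07 to 0.57). SDHA has 3 annotated pseudogenes, which can share its reads.

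Complex V had 3 members lower and none higher of 18, beside 13.1% lower and 17.5% higher of all genes. Its median was -0.30, and 16 of 18 had a negative value, beside 11214 of 21803 genes. These members share libraries, so their signs are not independent. ATP5F1C, the gamma subunit that turns inside the catalytic head (chr10:7788129-7807815), had 86.3, 79.7 and 83.1 CPM in treated deleted cells, against 108, 119 and 118 CPM in deleted DMSO cells. All treated libraries lay below all DMSO libraries, with a log2 fold change of -0.47 (SE 0.11, adjusted p = 0.00406). ATP5MC2 (-0.38, adjusted p = 0.0389) and ATP5PB (-0.30, adjusted p = 0.0131) were the others. ATP5F1B had 555, 480 and 500 CPM in treated deleted cells, against 719, 474 and 705 CPM in deleted DMSO cells. These groups overlapped through deleted DMSO replicate 2, the library with the highest mitochondrial share, and the log2 fold change of -0.31 (adjusted p = 0.184) became -0.49 without it (adjusted p = 0.0131).

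In complex I, NDUFA13 was higher (0.82, adjusted p = 0.00776), as was NDUFV3 (0.31, adjusted p = 0.0434), and NDUFA9, an accessory subunit near the quinone site, was lower (-0.36, adjusted p = 0.0497). No member of complex III passed, UQCRB being at -0.20 (95% interval -0.56 to 0.16), and COX4I1 was at 0.01 (-0.24 to 0.26). The calls of NDUFA4L2, NDUFA13 and ATP5F1C held whichever library was left out, and ATP5PB lost its call without treated deleted replicate 3 (-0.27, adjusted p = 0.0671). SDHA lost it in 3 of 12 such fits, SDHD in 5, NDUFV3 in 7, and NDUFA9 and ATP5MC2 in 8 each. Without the 2 libraries of highest mitochondrial share 4 members were higher and 13 lower, beside 18.9% and 16.2% of all genes. Without treated intact replicate 2 they were 4 and 10, beside 18.4% and 14.8%. Without treated deleted replicate 3 they were 2 and 1, beside 3120 and 2061 of 22601 genes.

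In intact cells, 170 nM doxorubicin against DMSO gave no call among 82 members in edgeR's quasi-likelihood test, and 13 of 21803 genes, 0.0596%, passed (0.0275% higher and 0.0321% lower). The libraries of treated and DMSO intact cells did not overlap for 3 members, beside 19.4% of all genes. DESeq2 called no member either and 467 genes in all. At unadjusted p under 0.05 there were 2 members, among them NDUFC2 (-0.25), and 2504 genes. The median of the members was 0.03, but -0.17 without treated intact replicate 2 and 0.15 without treated intact replicate 1. NDUFA4L2 had 0.130, 0.0621 and 0.197 CPM in treated intact cells, against 0.330, 0.258 and 0.102 CPM in intact DMSO cells, with overlapping libraries and a log2 fold change of -0.77 (95% interval -1.84 to 0.30). NDUFB9 had 163, 249 and 175 CPM in treated intact cells, against 192, 189 and 199 CPM in intact DMSO cells, and its high value is that of replicate 2.

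The doxorubicin effect in deleted cells less that in intact cells, in which dose and genotype change together, passed for 4 members, 2 higher and 2 lower or 4.88%, whereas 17.0% of all genes passed (10.3% higher and 6.74% lower). With library totals it was 2 higher and 0 lower, beside 11.6% and 4.68% of all genes. The median was -0.15 for members and -0.03 for all genes, but its direction rested on single libraries. Without treated intact replicate 2 the median was 0.06, with 3 higher and 2 lower, beside 10.6% and 9.64% of all genes. Without the 2 libraries of highest mitochondrial share it was -0.32, with 2 higher and 10 lower, beside 11.2% and 9.72%. NDUFA4L2 had a difference of 3.69 (SE 0.69, adjusted p = 0.00212) and NDUFA13 one of 1.00 (SE 0.28, adjusted p = 0.0268). ATP5F1C had a difference of -0.55 (SE 0.15, adjusted p = 0.0227). Of these 3 calls that of NDUFA4L2 alone held whichever library was left out, and no call of complexes II and III was made.

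**Figure D4:**
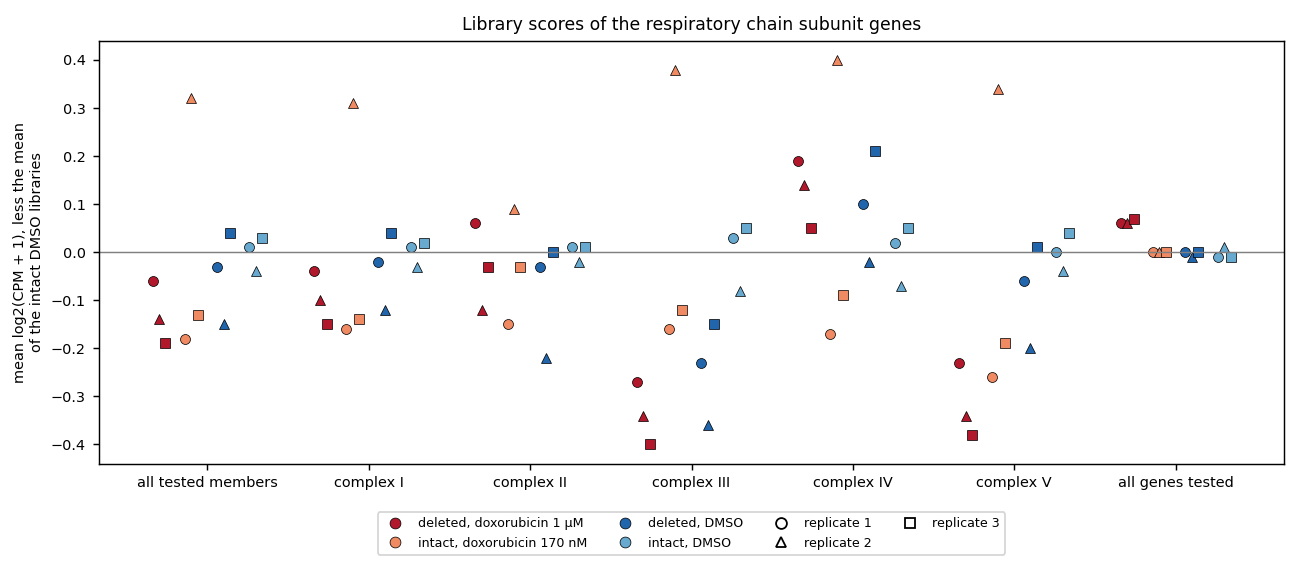
Score of each library (log2(CPM + 1) averaged over genes, relative to the average of intact DMSO cells for the same gene) for all tested members, each complex and all genes tested, with groups by colour and replicates by symbol. Replicate 2 of the treated intact cells is at 0.32 for all members, while the other libraries lie between -0.19 and 0.04, and all genes tested lie between -0.01 and 0.07.

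Between treated deleted and treated intact cells, which shared neither genotype nor dose, 5 members were higher and 19 lower of 82, 29.3%, against 47.8% of all genes (25.9% higher and 21.9% lower). The median was -0.14 for members and 0.02 for all genes, and libraries did not overlap for 24 members, beside 57.1% of all genes. With library totals in place of TMM scaling the split was 8 higher and 12 lower, beside 28.8% and 18.5% of all genes. ATP5MC1 had 27.9, 22.3 and 24.3 CPM in treated deleted cells, against 58.9, 105 and 65.3 CPM in treated intact cells, a log2 fold change of -1.62 (SE 0.20, adjusted p = 1.65e-05). NDUFB9 had 68.0, 64.0 and 59.4 CPM in treated deleted cells, against 163, 249 and 175 CPM in treated intact cells, also -1.62 (SE 0.14, adjusted p = 6.13e-07). In both genes the treated deleted libraries lay below all treated intact ones. This comparison and that in DMSO share no library, and 9 members were called in the same direction in both, with NDUFV3, NDUFC1 and COX5B higher and NDUFB9, ATP5MC1, UQCR10, NDUFB1, ATP5PD and ATP5PB lower. Of all genes 12.4% were higher in both and 10.9% lower in both, so these 3 and 6 of 82 members are no more than the background.

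Complex V gave 8 lower calls and none higher of 18, beside 21.9% lower and 25.9% higher of all genes, with a median of -0.33. ATP5PB, the b subunit of the peripheral stalk, had 132, 131 and 123 CPM in treated deleted cells, against 199, 223 and 194 CPM in treated intact cells. The groups were far apart, with a log2 fold change of -0.67 (SE 0.08, adjusted p = 1.42e-05). Besides ATP5MC1, ATP5PB and ATP5PD, the lower calls were ATP5MK (-0.55), ATP5MF (-0.50), ATP5MJ (-0.49), ATP5MC2 (-0.33) and ATP5F1C (-0.32). Without treated intact replicate 2, ATP5MC1, ATP5PB, ATP5PD and ATP5MK were the 4 lower calls of complex V, with a median of -0.13 and 2 higher calls, ATP5PF (0.41) and ATP5PO (0.55). In that fit 21.8% of all genes were lower and 23.5% higher. ATP5MF (-0.27, adjusted p = 0.101), ATP5MJ (-0.19, adjusted p = 0.187), ATP5MC2 (-0.16, adjusted p = 0.152) and ATP5F1C (-0.22, adjusted p = 0.0529) did not pass without that library.

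Complex II split again, between its own catalytic subunits. SDHA had 23.3, 21.3 and 22.9 CPM in treated deleted cells, against 14.4, 18.8 and 14.7 CPM in treated intact cells, a log2 fold change of 0.50 (SE 0.12, adjusted p = 0.00381). SDHB had 75.3, 77.8 and 73.7 CPM in treated deleted cells, against 97.2, 129 and 98 CPM in treated intact cells, a log2 fold change of -0.52 (SE 0.11, adjusted p = 0.00124). Neither gene's libraries overlapped between the groups, and both calls held in all 23 alternative settings. SDHC (0.16, 95% interval -0.16 to 0.48) and SDHD (-0.14, -0.35 to 0.08) did not pass.

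All 9 members of complex III had negative values, beside 10711 of 21803 genes, and these members share libraries. Their median was -0.34, and 3 were called lower, beside 21.9% of all genes. UQCR10 had 36.0, 37.7 and 38.2 CPM in treated deleted cells, against 73.8, 114 and 71.7 CPM in treated intact cells, a log2 fold change of -1.22 (SE 0.16, adjusted p = 2.85e-05). UQCRC2, a core subunit, was at -0.43 (adjusted p = 0.0017) and UQCRB, a subunit at the quinone pocket, at -0.45 (adjusted p = 0.04). Without treated intact replicate 2 the median of complex III was -0.10 and UQCRB did not pass (-0.37, adjusted p = 0.09).

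In complex I, 6 members were lower and 2 higher of 36, beside 21.9% and 25.9% of all genes. NDUFV3, an accessory subunit of the NADH module, had 52.3, 54.1 and 51.1 CPM in treated deleted cells, against 33.8, 33.0 and 27.9 CPM in treated intact cells, a log2 fold change of 0.73 (SE 0.11, adjusted p = 8.5e-05). NDUFC1 was higher by 0.47, and beside NDUFB9 the lower members were NDUFB1 (-0.83), NDUFV2 (-0.52), NDUFA6 (-0.46), NDUFA9 (-0.42) and NDUFB10 (-0.42). In complex IV, NDUFA4L2 had 1.19, 0.795 and 1.02 CPM in treated deleted cells, against 0.130, 0.0621 and 0.197 CPM in treated intact cells, a log2 fold change of 2.91 (SE 0.47, adjusted p = 0.000185). COX5B was higher (0.41, adjusted p = 0.0264). COX6B2 had 0.384, 0.607 and 0.307 CPM in treated deleted cells, against 1.28, 0.994 and 1.07 CPM in treated intact cells, a log2 fold change of -1.36 (SE 0.30, adjusted p = 0.00191). The libraries of NDUFA4L2, NDUFV3 and COX6B2 did not overlap, and those of COX5B, NDUFC1, ATP5MC2 and ATP5MJ did.

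The direction of the whole set in treated cells turned with single libraries. Without treated intact replicate 2, 11 members were higher and 15 lower, of which 5 and 14 were the same as above, beside 23.5% higher and 21.8% lower of all genes, and the median was 0.05. Without the 2 libraries of highest mitochondrial share, 3 were higher and 34 lower, beside 26.1% and 25.8% of all genes, and the median was -0.29. NDUFV2, ATP5MC2, ATP5MJ, UQCRB, COX5B and NDUFC1 lost their calls in 4 to 8 of the 12 fits that left out 1 library, and ATP5F1C and ATP5MF lost theirs without treated deleted replicate 2 as well. Across genes, each library's deviation from its group mean went with GC content to a different degree, with rho of 0.448 in treated intact replicate 2, -0.438 in replicate 1 and -0.126 in replicate 3. In deleted DMSO replicates 1, 2 and 3, which enter other comparisons, rho was 0.352, -0.502 and 0.417. With the GC trend removed the fit gave 7 members higher and 21 lower, beside 29.1% and 24.8% of all genes.

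Other genes of mitochondrial energy metabolism, from lists chosen with earlier results of these data known, are given by their counts. Between treated deleted and treated intact cells, where 25.9% of all genes were higher and 21.9% lower, 42 of 81 mitochondrial ribosomal protein genes were lower and 5 higher, with a median of -0.37, and without treated intact replicate 2 these were 39 and 6. Of 20 tested regulators of respiratory chain genes and of mitochondrial DNA expression 11 were lower and 4 higher, with a median of -0.46. Of these regulators NRF1, YY1 and GABPA are given in 1 comparison each, which is not the same one. NRF1 averaged 13.6 ± 0.579 CPM in treated deleted cells and 22.2 ± 1.53 CPM in deleted DMSO cells (SD, n = 3 each), a log2 fold change of -0.71 (adjusted p = 4.53e-05). It passed between treated genotypes as well. YY1 averaged 72.1 ± 2.90 CPM in treated deleted cells and 152 ± 15.0 CPM in treated intact cells, a log2 fold change of -1.08 (adjusted p = 4.89e-07). It passed between deleted and intact DMSO cells as well. GABPA, which shares its start region with ATP5PF, was higher in deleted than in intact DMSO cells (0.57, adjusted p = 0.0423). It lies on chromosome 21, where the 227 tested genes that are not members had a median of 0.60 in that comparison. TFAM, another regulator, did not pass in DMSO, nor for doxorubicin in deleted or intact cells, but it passed between treated genotypes.

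In DMSO, where 18.8% of all genes were higher and 16.2% lower, 16 of 47 assembly factors were lower and 8 higher in deleted cells. Of the 4 assembly factors on 17p, ATPAF2 (-0.49, adjusted p = 0.00604), TTC19 (-0.36, adjusted p = 0.00324) and COX10 (-0.29, adjusted p = 0.0285) were lower, and SCO1 was at -0.07 (adjusted p = 0.524). The 13 mRNAs that mitochondrial DNA encodes had a median of 0.77 in that comparison, with 2 higher and 1 lower, and the median was 0.02 without the 2 libraries of highest mitochondrial share. Among TCA cycle enzymes 7 of 19 were higher and 2 lower. Among 19 glycolysis genes 3 were higher and 8 lower, and among 14 hypoxia response genes none was higher and 7 were lower. Members with at least 1 NRF1, ETS or YY1 match (37 tested) gave 7 higher and 4 lower calls in DMSO, 1 and 5 for doxorubicin in deleted cells and 1 and 8 between treated genotypes. Members without a match (30 tested) gave 3 and 3, 3 and 0, and 4 and 8 in the same comparisons, and the 15 with no window in the table gave 0 and 1, 0 and 0, and 0 and 3. No difference between these classes was tested.

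**Figure D5:**
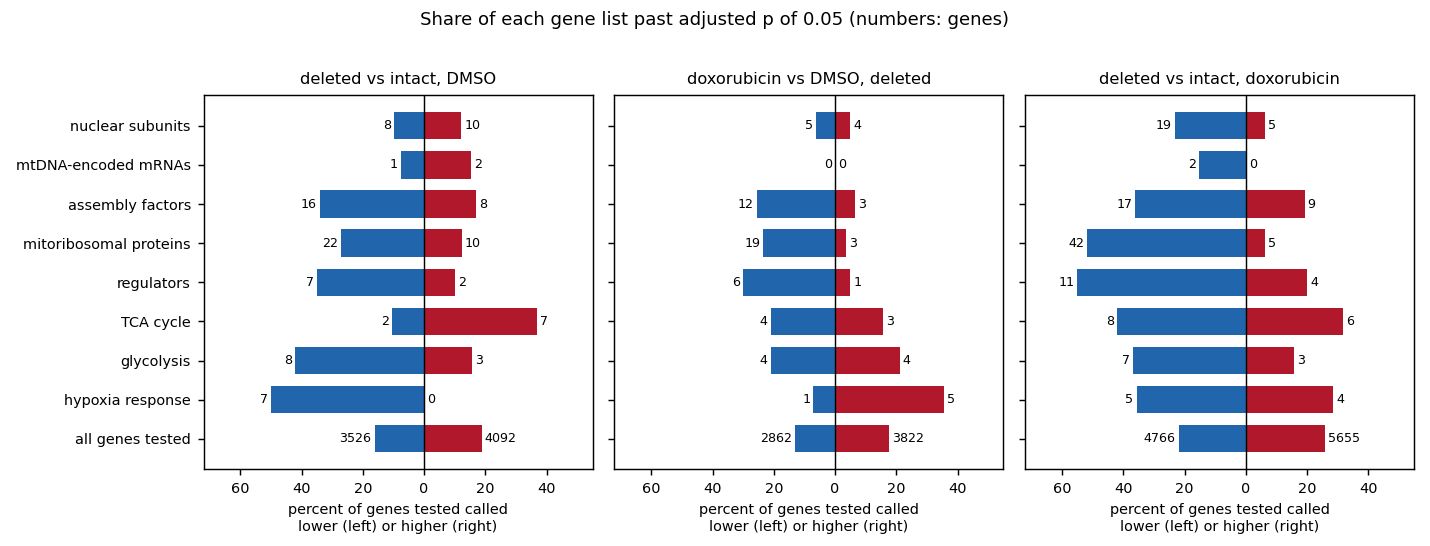
Percent of the tested genes of each list called lower (left of 0) or higher (right of 0) at adjusted p under 0.05 in 3 comparisons, with the number of genes at each bar. Nuclear subunits had 5 higher and 19 lower calls between treated deleted and treated intact cells, and mitochondrial ribosomal protein genes 5 higher and 42 lower.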

How the data were processed

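The authors deposited raw gene counts for 12 libraries of total RNA. Per the submitters' processing notes, the tools were bcl2fastq, STAR 2.7.9a as aligner and, for counting, featureCounts from the Subread 2.0.1 package, on build hg38. The labels' protocols give KAPA libraries read as 100-base pairs, and neither annotation release nor strand setting is given in the sources used here. Gene positions and exon lengths are from GENCODE 29, which held all 88 members. Counts were filtered (filterByExpr) and scaled (TMM), and 21803 of 60660 genes were tested with edgeR 4.0.16 (glmQLFit, glmQLFTest; R 4.3.3) in 1 fit of 4 groups. Benjamini-Hochberg adjustment ran over all genes tested, at a threshold of 0.05. SEs are the log2 fold change over the root of F. CPM values are TMM-scaled, and per-kilobase levels divide them by the length of the merged exons.

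Alternatives were other scalings and filters, DESeq2 1.42.0, fits of the compared groups alone, a replicate block, removal of GC or exon length trends (loess, span 0.5), and fits without single or doubted libraries. On simulated data for doxorubicin in deleted cells (200 changed genes among 21151), edgeR called 43% of 1.5-fold and 96% of 2-fold changes, with 6.71% false among the called. The simulated libraries held no GC or length trend, and in the data 6684 of 21803 genes passed. These rates may therefore not carry over to the data. The members and all gene lists were chosen with earlier results of these data known. Values per library were given for the members with the lowest p and the most abundant not passing in each complex, the alternative isoforms, the SDH genes and the largest changes, with the rest as counts. One member entered all fits and counts, but its own values are not reported here.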

Additional observations from a re-analysis of the deposited data

Results flagged for a closer look

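In the 3 members given here the doxorubicin effect differed between deleted and intact cells by edgeR's test of the difference itself, adjusted over all 21803 genes. Doses differed as well, 1 µM in deleted cells and 170 nM in intact cells, so dose and genotype cannot be told apart in any of them. NDUFA4L2 had a difference of 3.69 (SE 0.69, adjusted p = 0.00212), with effects of 2.92 in deleted cells and -0.77 in intact cells, and passed in all 21 alternative settings that could test it. ATP5F1C had a difference of -0.55 (adjusted p = 0.0227), with effects of -0.47 in deleted cells and 0.08 in intact cells, and lost its call in 8 of 22 settings. NDUFA13 had a difference of 1.00 (adjusted p = 0.0268), with effects of 0.82 in deleted cells and -0.19 in intact cells, and lost its call in 8 of 22 settings. NDUFA4L2 rests on 379 counts over 12 libraries, and NDUFA13 shares 21.0% of its exon bases with other genes.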

How the results depend on the processing

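Members called lower between deleted and intact cells in DMSO numbered 14 when only the groups compared were fitted, beside 3531 of 19740 genes. For doxorubicin in deleted cells, 2 were lower with library totals and 3 with the replicate block, beside 2541 and 2423 of 21803 genes. With the GC trend removed 8 were lower, beside 3796 of 21803 genes. Without the 2 libraries of highest mitochondrial share 13 were lower, beside 3655 of 22496 genes. The higher calls numbered 2 with the exon length trend removed, a setting chosen after seeing the data, beside 3903 of 21803 genes. Between treated deleted and treated intact cells, library totals gave 8 higher and 12 lower, beside 6280 and 4043 of 21803 genes. There were 3 higher with only the groups compared (5308 of 20605 genes) and 12 with the length trend removed (5876 of 21803 genes). Without the 2 mitochondrial-rich libraries 3 were higher and 34 lower (median of members -0.29), beside 5881 and 5800 of 22496 genes. For the difference of effects 0 were lower with library totals or with the replicate block, beside 1020 and 1046 of 21803 genes. With a 1 CPM filter 1 was higher (2108 of 14891 genes), as was 1 with GC removed and the block (2700 of 21803 genes). DESeq2 gave 5 lower, beside 1927 of 21803 genes. Without the 2 mitochondrial-rich libraries 10 were lower (median of members -0.32), beside 2187 of 22496 genes. Near-zero values changed sign for doxorubicin in deleted cells: COX4I1 was at -0.00 with the 1 CPM filter, -0.05 with GC removed (with or without the block) and -0.03 with length removed, and NDUFV1 at -0.02 with GC removed (with or without the block) and -0.10 without the 2 libraries. Leaving out 1 library gave, in DMSO, 4 to 10 higher, 6 to 15 lower and medians of -0.07 to 0.00. For doxorubicin in intact cells it gave 0 calls and medians of -0.17 to 0.15. In deleted cells it gave 2 to 4 higher, 1 to 10 lower, medians of -0.16 to -0.08, COX4I1 at -0.09 to 0.07 and NDUFV1 at -0.11 to 0.20. Between treated genotypes it gave 3 to 11 higher, 14 to 27 lower and medians of -0.28 to 0.05, and for the difference of effects 1 to 3 higher, 0 to 5 lower and medians of -0.26 to 0.06. Of 22435 to 22785 genes tested, the same fits called 2910 to 4173 higher and 2817 to 4136 lower in DMSO. For doxorubicin in deleted cells these were 3120 to 4169 and 2061 to 3354. Between treated genotypes they were 4699 to 6067 and 4346 to 5682, and for the difference 1767 to 2406 and 933 to 2190. The cause was not tested in any of these. Library totals moved the median of all genes for the difference of effects by 0.11, and a table without a filter by 0.15. Replicate numbers did not pair the libraries: over 18 same-number pairs r ran from -0.186 to 0.109. In DMSO the block gave 9 higher and 7 lower, beside 3549 and 3171 of 21803 genes. For doxorubicin it gave 3 and 3 in deleted cells, beside 3473 and 2423, and 0 and 0 in intact cells, beside 0 and 0. Between treated genotypes it gave 5 and 16, beside 5309 and 4379, and for the difference 2 and 0, beside 1867 and 1046. The difference of effects needs all 4 groups, so no fit of fewer groups was run for it. Depth limits NDUFA4L2 and COX6B2, as well as ATP5MGL (110 counts over all libraries), ATP5MF-PTCD1 (115) and NDUFA7 (426). NDUFA13, with 2424 counts, is limited by the exon bases it shares with other genes. The 6 untested members cannot be compared at this depth.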
